A study of Mus musculus with 24 samples.

Results

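The comparison set 4 kidney libraries taken 4 weeks after reversal of a ureter obstruction against 4 taken at the end of the obstruction, chosen by sample title from the 24 libraries of the series. Unilateral ureter obstruction (UUO) is a mouse model in which 1 ureter is ligated, so that the kidney above it stays under back pressure. In the UUO-7 group (UUO-7 1 to 4) the animals were culled at day 7 of obstruction. In the UUO R4W group (UUO R4W 1 to 4) the ureter was reimplanted after 7 days and the animals were culled 4 weeks later. Sham-operated animals (Sham 1 to 4) gave the reference for genes that were raised or lowered by obstruction, and the groups culled 1 week (UUO R1W) and 2 weeks (UUO R2W) after reversal gave intermediate values. All animals were male C57/BL6 mice that were 8 to 9 weeks old when the experiment began, and 4 of 10 animals a group were sequenced. The UUO R4W animals were therefore older at cull than the UUO-7 animals, and age and recovery time cannot be told apart. For UUO R4W 2 the labels conflict, with 4 weeks in the title and 2 weeks in the treatment field, and the title was used.

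An obstructed tubule loses its differentiated epithelium: the cells stop making transporters, turn on injury and repair genes, and are surrounded by macrophages, activated fibroblasts and new collagen. When the flow of urine is restored, surviving tubule cells can divide and differentiate again, and part of the matrix and of the inflammatory infiltrate can clear. Bulk RNA measures all of these cells together, so a lower value can come from fewer cells of a type or from less RNA per cell, and these cannot be told apart.

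Values are FPKM, fragments scaled to transcript length and library depth, and 14785 genes were tested. Fold changes are UUO R4W minus UUO-7 on log2(FPKM + 1), each with its standard error (SE). They compare 4 libraries with 4, and the SE uses the spread pooled over all 24 libraries of the model. A gene was called at an adjusted p under 0.05. Whole-read steps in the low values gave implied depths of 25980000 to 30020000 fragments in UUO-7 and 28860000 to 35280000 in UUO R4W. Pearson's r of log2 values across genes was 0.962 to 0.983 between UUO R4W libraries, 0.982 to 0.987 between UUO-7 libraries and 0.923 to 0.957 between the groups. Most kidney markers were detected at day 7: all 30 proximal tubule genes and all 10 podocyte genes of the lists had a UUO-7 mean of at least 1 FPKM. In the distal convoluted and connecting tubule list and in the intercalated cell list 10 of 11 genes had such a mean. The exceptions were Pvalb at 0.01 FPKM and Slc4a1 at 0.53 FPKM. UUO R4W 1 and UUO R4W 3 carried adipose RNA, described with its values below, and results that rest on them are given without them.

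Across all genes, 7155 of 14785 (48.4%) were called, 2604 higher (17.6%) and 4551 lower (30.8%) in UUO R4W. The split depended on the scale. After rescaling each library by its median ratio to the other libraries, 7148 genes (48.3%) were called, 3717 higher (25.1%) and 3431 lower (23.2%), so that the share of calls that were higher went from 36.4% to 52.0%. Rescaling divides all genes of a library by the same factor, so calls in opposite directions on the 2 scales were hardly possible, and none occurred. On both scales 6034 genes were called the same way. The median log2 fold change of all genes was -0.08 as deposited and 0.02 after rescaling. Without UUO R4W 1 and 3, 5630 genes (38.1%) were called, 1908 higher (12.9%) and 3722 lower (25.2%). The libraries of the 2 groups did not overlap for 2643 genes that were higher (17.9%) and 4627 that were lower (31.3%) in UUO R4W.

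Most of what changed moved back toward Sham. Of 8408 genes with all 4 UUO-7 libraries above all 4 Sham libraries (56.9% of genes), 4267 fell by UUO R4W, 3978 were not called and 163 rose further. In 3043 of the 4267 the UUO R4W libraries were still all above Sham, in 1186 they overlapped Sham and in 38 they were all below it. Among 2488 genes with all UUO-7 libraries below Sham (16.8%), 1689 rose, 793 were not called and 6 fell further. The other 1030 called genes were ones in which UUO-7 and Sham overlapped. In 869 of the 1689 the UUO R4W libraries were still all below Sham, in 770 they overlapped Sham and in 50 they were above it. These classes read the same UUO-7 libraries against Sham and against UUO R4W, so a UUO-7 library that is high or low by chance enters both. The balance of these classes turned with the scale. On the rescaled values 5069 genes were raised and 5048 lowered at day 7, close to equal numbers. Rescaling by the median ratio centres the libraries on each other, so this balance is largely set by the method. Of the raised genes 2596 fell, with 1330 of them still above Sham, and of the lowered genes 2909 rose, with 1908 of them still below Sham. The larger share of recovering genes short of Sham was thus among raised genes as deposited and among lowered genes after rescaling.

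**Figure D1:**
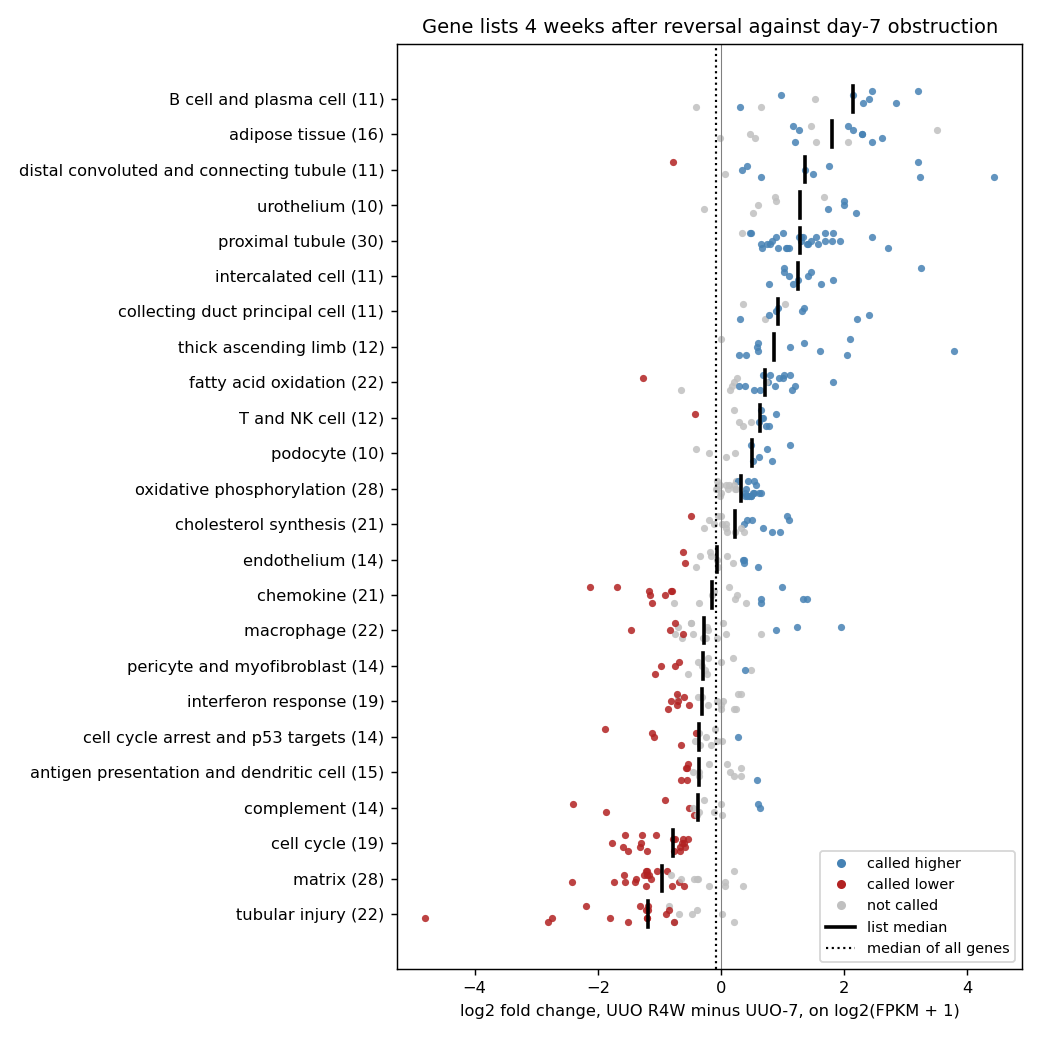
Log2 fold change of each gene (UUO R4W minus UUO-7, on log2(FPKM + 1), horizontal axis) in every gene list with at least 10 measured genes, with the number measured in brackets. Points are genes, coloured by whether they were called, short bars are list medians and the dotted line is the median of all genes at -0.08. The tubular injury, matrix and cell cycle lists lie lowest, and the B cell, adipose, distal tubule, urothelium and proximal tubule lists have the highest medians.

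Tubular injury genes fell furthest. Of 22 measured, 15 were called lower and 0 higher, against 30.8% and 17.6% of all genes, with a median log2 fold change of -1.18 against -0.08 over all genes. Havcr1 (chr11:46735080-46779578, mm10), which encodes KIM-1, a receptor that injured proximal tubule cells use to take up debris, stood at 508, 443, 510.1 and 429 FPKM in UUO-7 1 to 4. In UUO R4W 1 to 4 it stood at 16.8, 19.6, 24.7 and 7.79 FPKM. The groups were far apart, and all 4 UUO R4W libraries remained above the Sham range of 1.49 to 2.35 FPKM. Its log2 fold change of -4.80 ± 0.33 (SE, adjusted p = 5.89e-09) was the largest among the falls ranked by the naming rule. The means in UUO R1W and UUO R2W were 125 and 62.3 FPKM.

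Spp1 encodes osteopontin, a secreted phosphoprotein of injured tubules that attracts macrophages. Its level was 15894, 16448, 17535 and 14637 FPKM in UUO-7 and 2229, 2829, 2362 and 1882 FPKM in UUO R4W, a log2 fold change of -2.81 ± 0.22 (SE, adjusted p = 3.69e-08). The UUO R4W libraries did not overlap either UUO-7 or Sham (385 to 719 FPKM). Lcn2, which encodes NGAL, an iron-carrier-binding protein used as a urinary injury marker, was 748 to 1107 FPKM in UUO-7 and 165 to 218 FPKM in UUO R4W. It changed by -2.19 ± 0.40 (SE, adjusted p = 0.000209), and the 4 UUO R4W values stood close together above a Sham range of 2.15 to 16.2 FPKM. The adhesion molecule Vcam1 was 133, 141, 176 and 155 FPKM in UUO-7 and 40.2, 60.2, 54.0 and 24.5 FPKM in UUO R4W, all above Sham (1.55 to 2.03 FPKM). Its change was -1.80 ± 0.23 (SE, adjusted p = 9.42e-06). Krt20, a keratin of stressed epithelium, fell by 2.74 on the log2 scale. Other falls among the 12 largest, outside the injury list, included Sprr2f, a cornified-envelope protein gene (-2.30), and Aoc1, which encodes the histamine-degrading diamine oxidase (-2.23). In contrast Krt7, a simple-epithelium keratin, and Anxa1, an anti-inflammatory annexin, gave 0.02 and 0.21 and were not called. UUO R4W libraries were all above Sham for 19 of the 22 injury genes (52.9% of all genes).

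**Figure D2:**
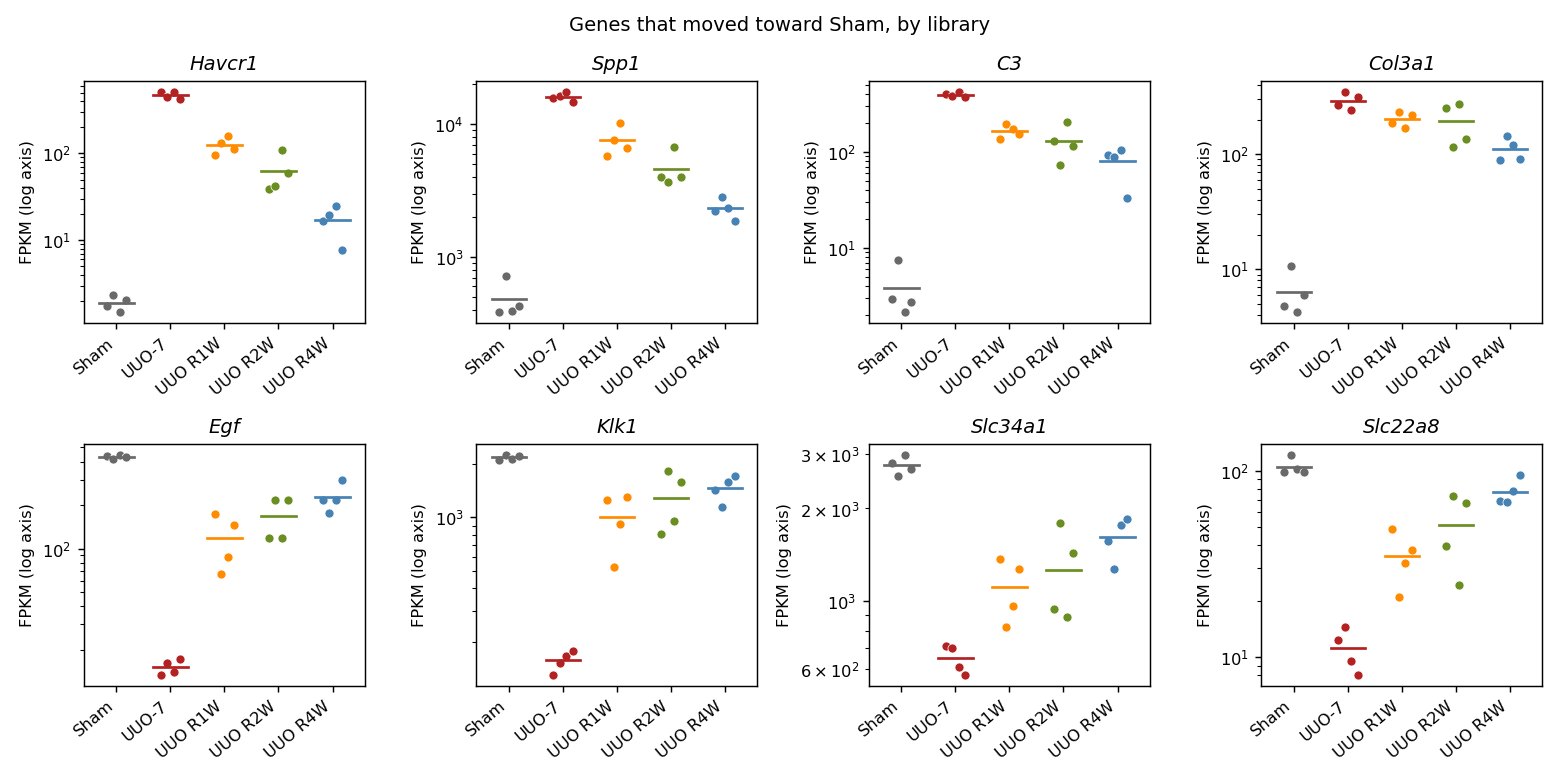
FPKM on a log axis for 8 genes in each library of 5 groups, with group means as lines. Havcr1, Spp1, C3 and Col3a1 are high in UUO-7 and lower in UUO R4W yet above Sham, and Egf, Klk1, Slc34a1 and Slc22a8 are low in UUO-7 and higher in UUO R4W yet below Sham in all 4 libraries.

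Among the 12 largest falls were Gc, Serpina10, Fgg and Fga, which encode proteins of blood plasma; no list of such genes was tested, and Ttr, another plasma protein gene, rose. Gc, which encodes the vitamin D-binding protein, was 118, 133, 156 and 132 FPKM in UUO-7 and 14.4, 19.3, 21.6 and 8.98 FPKM in UUO R4W. The UUO R4W libraries overlapped Sham (7.23 to 10.4 FPKM), and the change was -3.05 ± 0.20 (SE, adjusted p = 5.83e-09). Serpina10, which encodes an inhibitor of coagulation factor Xa, fell by 2.45 from a mean of 85.4 to 15.1 FPKM. Fgg and Fga encode fibrinogen chains and were named by their rank among the falls. The gene for the other chain, Fgb, was added after its values were seen.

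The 3 fibrinogen genes lie next to each other on mouse chromosome 3 and encode the chains that join into the clot protein; they are mainly liver genes that IL-6 raises in the acute phase. The 150 bases before each start (RefSeq sequence, GRCm38.p6) are shown because the genes are neighbours that moved together. Capitals mark CTGGGA, the core of a known IL-6 response element, searched on both strands. For Fga the start is that of the deposited table, 77 bases upstream of the RefSeq start.
Fgg chr3:83007574-83007723 (+ strand): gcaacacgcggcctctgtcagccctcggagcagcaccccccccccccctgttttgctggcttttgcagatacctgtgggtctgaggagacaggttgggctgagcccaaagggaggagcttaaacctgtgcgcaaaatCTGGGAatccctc
Fga chr3:83025926-83026075 (+ strand): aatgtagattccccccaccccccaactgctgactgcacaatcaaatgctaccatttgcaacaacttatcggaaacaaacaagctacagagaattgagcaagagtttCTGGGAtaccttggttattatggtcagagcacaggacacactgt
Fgb chr3:83049864-83050013 (- strand): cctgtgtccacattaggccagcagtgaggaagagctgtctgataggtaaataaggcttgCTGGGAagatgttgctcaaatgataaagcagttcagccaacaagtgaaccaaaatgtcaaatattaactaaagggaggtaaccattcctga
Each window held the motif 1 time, beginning 13 bases before the start in Fgg, 44 in Fga and 91 in Fgb. Of 32851 RefSeq windows of the same length, 17.7% held it on either strand. A match of letters is a description and does not show that a factor binds there.

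Fgg was 133, 139, 87.3 and 86.4 FPKM in UUO-7 and 18.4, 10.3, 11.04 and 13.3 FPKM in UUO R4W. Fga was 100.1, 98.7, 64.1 and 66.0 FPKM in UUO-7 and 14.4, 11.46, 11.8 and 11.8 FPKM in UUO R4W. Fgb, at a far lower level, was 9.70, 9.39, 8.79 and 5.94 FPKM in UUO-7 and 0.40, 0.90, 0.62 and 0.26 FPKM in UUO R4W. All 3 separated the groups. UUO R4W overlapped the range of Sham for Fga (10.4 to 14.2 FPKM) and Fgb (0.17 to 0.27 FPKM) and stayed above it for Fgg (6.01 to 7.31 FPKM). The log2 fold changes were -2.98 ± 0.24 for Fgg (SE, adjusted p = 3.94e-08), -2.61 ± 0.27 for Fga (adjusted p = 1.18e-06) and -2.61 ± 0.19 for Fgb (adjusted p = 1.53e-08). Most of the fall was present at 1 week, when the UUO R1W means were 21.6 FPKM for Fgg, 19.5 for Fga and 1.45 for Fgb.

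Complement genes, which encode plasma and cell-surface proteins that tag targets for uptake, were called lower in 5 and higher in 2 of 14 measured (median -0.37), near the shares of all genes (30.8% and 17.6%). C3, the central component, was 402, 380.2, 423 and 375 FPKM in UUO-7 and 92.8, 88.3, 106 and 33.2 FPKM in UUO R4W. UUO R4W 4 was far below the other 3, and all 4 were above Sham (2.13 to 7.48 FPKM). The change was -2.41 ± 0.33 (SE, adjusted p = 1.56e-05). Cfi, which encodes a protease that inactivates C3b, fell by 1.86. Cd55, an inhibitor of complement on cell membranes, rose by 0.60 ± 0.09 (SE, adjusted p = 3.49e-05). C7, a part of the membrane attack complex, rose by 0.64 but was not called without UUO R4W 1 and 3 (0.38, adjusted p = 0.246), nor without UUO R4W 3 alone (adjusted p = 0.07) or UUO-7 3 alone (adjusted p = 0.0682).

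Of 28 extracellular matrix genes measured, 18 were called lower and 0 higher (median -0.95), against 30.8% and 17.6% of all genes. In all 28 the 4 UUO R4W libraries stood above the 4 Sham libraries, against 52.9% of all genes. Col3a1, a fibrillar collagen gene, was 265, 347, 242 and 315 FPKM in UUO-7 and 89.7, 145, 119 and 90.0 FPKM in UUO R4W. Sham was 4.26 to 10.7 FPKM, so all UUO R4W libraries lay between the other groups, and the change was -1.40 ± 0.27 (SE, adjusted p = 0.000296). Col1a1, the main collagen of scar tissue, was 76.8 to 92.5 FPKM in UUO-7, 24.2 to 42.2 FPKM in UUO R4W and 1.56 to 3.71 FPKM in Sham, a change of -1.22 ± 0.24 (adjusted p = 0.000433). Timp1, which encodes an inhibitor of matrix-degrading proteases, fell by 2.42 ± 0.37 (SE, adjusted p = 4.40e-05), from 85.8 to 115 FPKM down to 11.4 to 29.3 FPKM. Col12a1 stayed near its UUO-7 mean of 31.2 FPKM in UUO R1W and UUO R2W (29.3 and 29.8 FPKM) and was 8.96 FPKM in UUO R4W.

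The matrix list was not uniform. The small proteoglycan genes Dcn and Lum and the elastin gene Eln gave 0.21, 0.36 and 0.07 and were not called. Mmp2, which encodes a collagen-degrading protease, was at a mean of 36.2 FPKM in UUO-7 and 28.5 FPKM in UUO R4W (-0.37, not called). Acta2, the smooth muscle actin of myofibroblasts, was 103, 108, 88.0 and 79.2 FPKM in UUO-7 and 76.7, 58.8, 75.4 and 50.3 FPKM in UUO R4W. Those values did not overlap, but the change of -0.54 ± 0.34 (SE) had an adjusted p of 0.197 in the fit across all genes. Pdgfrb, a growth factor receptor of pericytes and fibroblasts, fell by 1.08 ± 0.17 (SE, adjusted p = 6.29e-05). Of the 14 pericyte and myofibroblast genes, 4 were called lower and 1 (Rgs5, 0.39, not called without UUO R4W 1 and 3) higher, against 30.8% and 17.6% of all genes. Without UUO R4W 4 the number called lower was 2.

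All 19 measured cell cycle genes were called lower (30.8% of all genes), with a median of -0.78. Top2a, which untangles DNA before division, was 19.7, 23.1, 27.3 and 22.0 FPKM in UUO-7 and 6.13, 8.01, 7.61 and 3.35 FPKM in UUO R4W. Sham was 0.90 to 1.55 FPKM, so every UUO R4W library lay between the other groups, and the change was -1.77 ± 0.24 (SE, adjusted p = 1.29e-05). Cdk1, the kinase that drives mitosis, fell by 1.52 ± 0.21 (SE, adjusted p = 2.06e-05). The means of Cdk1 were 20.0 FPKM in UUO-7, 10.4 in UUO R1W, 9.87 in UUO R2W and 6.51 in UUO R4W. UUO R4W libraries were all above Sham for 17 of the 19 genes, against 52.9% of all genes. Among 14 cell cycle arrest and p53 target genes, 5 were called lower and 1 (Ccng1, adjusted p = 0.0489, above 0.05 with any of 6 libraries left out) higher, against 30.8% and 17.6% of all genes. Cdkn1a, which encodes the inhibitor p21, went from 36.6 to 45.4 FPKM down to 12.4 to 21.8 FPKM (-1.12 ± 0.28, SE, adjusted p = 0.0029).

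Genes called higher were found in each of the tubule segment lists, with unequal steps toward Sham. In the proximal tubule, which reclaims most of the filtrate, 29 of 30 genes were called higher (17.6% of all genes) and 0 lower, with a median of 1.28. Slc34a1, the apical phosphate transporter, was 715, 705, 608 and 575 FPKM in UUO-7 and 1562, 1271, 1764 and 1842 FPKM in UUO R4W, against 2548 to 2992 FPKM in Sham. All 4 UUO R4W libraries were above UUO-7 and below Sham, and the change was 1.30 ± 0.21 (SE, adjusted p = 6.91e-05). Lrp2, which encodes megalin, the receptor for filtered proteins, was 17.5 to 24.1 FPKM in UUO-7, 43.8 to 63.6 FPKM in UUO R4W and 96.3 to 127 FPKM in Sham. Its change was 1.29 ± 0.21 (SE, adjusted p = 6.58e-05). The drug and organic anion transporter Slc22a8 rose most within the list, from 12.4, 14.5, 9.58 and 8.06 FPKM to 69.1, 67.7, 78.2 and 94.3 FPKM (2.71 ± 0.27, SE, adjusted p = 7.6e-07). Its highest value, in UUO R4W 4, was just under the lowest Sham library at 98.2 FPKM. For 29 of the 30 genes the UUO R4W libraries were all below Sham (11.6% of all genes).

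The enzymes Inmt, an indolethylamine N-methyltransferase, and Ces1d, a carboxylesterase, were also among the 12 largest rises. Inmt was 143, 152, 101 and 83.6 FPKM in UUO-7 and 560, 578, 686 and 789 FPKM in UUO R4W (2.46 ± 0.23, SE, adjusted p = 4.81e-07). Ces1d rose by 2.59 and Cyp2d12, a cytochrome P450, by 2.66. Both have close copies in the genome, so reads could be split between them. For Cyp2d12 the UUO R4W libraries varied widely, with 39.6, 5.76, 27.9 and 45.8 FPKM. Gpx6, a glutathione peroxidase family gene, rose by 2.72, Ttr, which encodes a thyroid hormone carrier, by 2.79 and the membrane carbonic anhydrase Car14 by 2.47.

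The thick ascending limb, which reabsorbs salt without water, had 11 of 12 genes called higher (median 0.86), against 17.6% of all genes. Egf (chr3:129677565-129755316) encodes epidermal growth factor, which the distal nephron makes as a membrane precursor. It stood at 13.5, 16.1, 14.1 and 17.3 FPKM in UUO-7 and 216, 177, 216 and 299 FPKM in UUO R4W. That was a 14.9-fold higher mean and a change of 3.79 ± 0.40 (SE, adjusted p = 1.20e-06), yet every UUO R4W library was below the Sham range of 416 to 446 FPKM. The rise went through means of 119 FPKM in UUO R1W and 168 in UUO R2W. The salt transporter Slc12a1 was 37.8 to 51.3 FPKM in UUO-7, 146 to 246 FPKM in UUO R4W and 207 to 282 FPKM in Sham, so UUO R4W overlapped Sham (2.10 ± 0.29, SE, adjusted p = 1.74e-05). Umod, which encodes uromodulin, the most abundant protein of urine, was less reduced at day 7: it was 1047, 1117, 1027 and 1342 FPKM in UUO-7 and 1729, 1896, 1328 and 1977 FPKM in UUO R4W. The groups overlapped through UUO-7 4 and UUO R4W 3, and the change was 0.60 ± 0.16 (SE, adjusted p = 0.00466).

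In the distal convoluted and connecting tubule, which adjusts calcium, magnesium and potassium, 9 of 11 genes were called higher and 1 lower (median 1.37), against 17.6% and 30.8% of all genes. Pvalb, which encodes the calcium buffer parvalbumin of the distal convoluted tubule, was listed at 0 in 3 UUO-7 libraries and at 0.04 FPKM in UUO-7 1. In UUO R4W it was 21.3, 19.6, 22.8 and 19.8 FPKM, against 32.3 to 37.3 FPKM in Sham, and no fold is given against values at 0. The means were 2.53 FPKM in UUO R1W and 7.85 in UUO R2W. Pvalb is also a muscle gene. Of the skeletal muscle list 2 of 10 genes were measured, Pvalb and Mylpf, and Mylpf had means of 1.26 FPKM in UUO-7 and 2.16 FPKM in UUO R4W. The part of muscle RNA in the result was not tested. Calb1, another calcium-binding protein, rose by 3.23 ± 0.29 (SE, adjusted p = 2.36e-07), from 7.70, 9.30, 8.98 and 10.97 FPKM to 86.1, 104, 84.1 and 105 FPKM, which overlapped Sham (81.6 to 93.1 FPKM). Klk1, the secreted protease tissue kallikrein, rose by 3.20 ± 0.32 (SE, adjusted p = 6.58e-07), from 131 to 179 FPKM up to 1140 to 1715 FPKM, still below Sham (2099 to 2243 FPKM). The exception was the calcium channel gene Trpv5, which was above Sham at day 7 and fell by 0.78 (adjusted p = 0.0146), but not without UUO R4W 1 and 3 (-0.60, adjusted p = 0.139).

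In the 2 collecting duct lists 0 of 22 genes had all 4 UUO R4W libraries below Sham, against 11.6% of all genes. All 11 intercalated cell genes, of the cells that secrete acid or base, were called higher (median 1.25), against 17.6% of all genes, and in 7 of them the UUO R4W libraries were all above Sham, against 52.9% of all genes. Slc4a1, which encodes the chloride-bicarbonate exchanger of acid-secreting cells, was 0.39, 0.60, 0.56 and 0.57 FPKM in UUO-7 and 13.1, 18.0, 8.98 and 16.0 FPKM in UUO R4W. Sham was 10.2 to 19.5 FPKM, so UUO R4W overlapped it, and the change was 3.25 ± 0.36 (SE, adjusted p = 2.00e-06). Slc4a1 is also a red blood cell gene. The 6 measured red blood cell genes summed to 362 to 495 FPKM in UUO-7 and 386 to 607 FPKM in UUO R4W, and their part in the result was not tested. Of 11 principal cell genes, which serve water and sodium uptake, 8 were called higher and 0 lower (median 0.93), against 17.6% and 30.8% of all genes. In 5 the UUO R4W libraries were all above Sham, near the share of all genes (52.9%), a count not made without Sham 2. The principal cell genes summed to 999.9 FPKM in Sham 2 and 424 to 569 FPKM in the other Sham libraries, against 675 to 1329 FPKM in UUO R4W.

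The vasopressin-regulated water channel gene Aqp2 was 77.3, 64.0, 113 and 87.0 FPKM in UUO-7 and 673, 237, 449 and 322 FPKM in UUO R4W, a change of 2.21 ± 0.40 (SE, adjusted p = 0.000171). Its order among the UUO R4W libraries, with UUO R4W 1 and 3 highest, was also that of the urothelial genes described below. In Sham it was 159, 529, 143 and 216 FPKM, with the high value in the Sham library that carried urothelial RNA. Whether sampling of deeper kidney or pelvis contributes was not tested. Without UUO R4W 1 and 3 the change was 1.71 (adjusted p = 0.00813).

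Of 22 fatty acid oxidation genes 15 were called higher and 1 lower (median 0.71), against 17.6% and 30.8% of all genes. Ehhadh, a bifunctional enzyme of peroxisomal oxidation, was 43.9, 61.5, 26.4 and 39.1 FPKM in UUO-7 and 138, 173, 118 and 165 FPKM in UUO R4W, below Sham (313 to 385 FPKM). The groups did not overlap, and the change was 1.82 ± 0.36 (SE, adjusted p = 0.000448). The decrease was in Pdk4, a kinase that shuts off glucose oxidation, which fell by 1.27 ± 0.33 (SE, adjusted p = 0.00342). Of 28 nuclear genes of oxidative phosphorylation 15 were called higher, 0 lower and 13 not called (median 0.33), against 17.6% of all genes called higher, and in all 28 every UUO R4W library was below every Sham library, against 11.6% of all genes. Atp5b, a subunit of ATP synthase, went from 1072 to 1163 FPKM up to 1658 to 1883 FPKM (0.65 ± 0.11, SE, adjusted p = 0.000101), against 2424 to 2541 FPKM in Sham. Transcripts of the mitochondrial genome made up 5.42% to 6.37% of summed FPKM in UUO-7 and 9.68% to 12.1% in UUO R4W.

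The 163 genes that were raised at day 7 and rose further were led by immunoglobulin genes. Without Sham 2, which carried adipose and urothelial RNA, the class held 283 genes. Igkc (chr6:70726435-70726966), the constant part of the kappa light chain of antibodies, was 32.6, 70.3, 48.7 and 42.7 FPKM in UUO-7 and 429, 359, 604 and 146 FPKM in UUO R4W. Sham was 13.0 to 22.3 FPKM, so the 3 groups were in separate ranges, and the change was 2.84 ± 0.33 (SE, adjusted p = 3.68e-06). The means in UUO R1W and UUO R2W were 99.8 and 92.6 FPKM.

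Jchain, which links antibodies of the IgA and IgM classes into polymers, was 2.18, 5.12, 3.10 and 3.22 FPKM in UUO-7 and 21.2, 25.6, 42.9 and 10.7 FPKM in UUO R4W (2.46 ± 0.28, SE, adjusted p = 2.87e-06). Igha, the constant part of the IgA heavy chain, was 21.0, 48.0, 32.2 and 32.3 FPKM in UUO-7 and 112, 196, 361 and 88.8 FPKM in UUO R4W (2.31 ± 0.34, SE, adjusted p = 3.00e-05). UUO R4W 3 was highest and UUO R4W 4 lowest for all 3 genes. Ighg1, an IgG heavy chain gene, was 150 FPKM in UUO R4W 1 and 0.50 to 2.21 FPKM in the other 3. Of 11 B cell and plasma cell genes 8 were called higher and 0 lower (median 2.14), against 17.6% and 30.8% of all genes. Without UUO R4W 1 and 3 there were 6 higher, against 12.9% of all genes, and the median was 1.33, and Igkc still rose, by 2.27 (adjusted p = 0.000239). Antibody genes are near copies of each other, so the split of reads between them is uncertain.

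**Figure D3:**
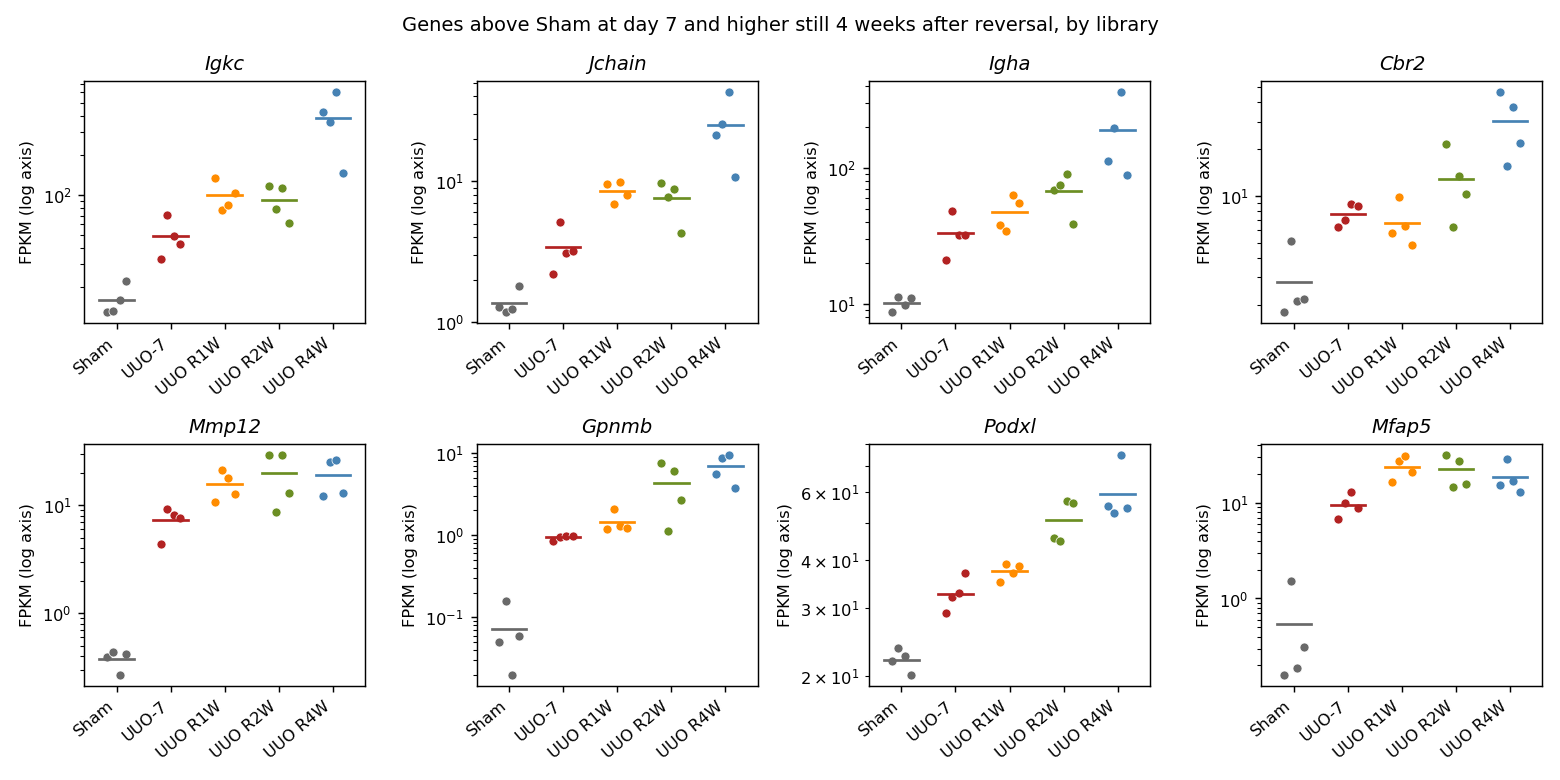
FPKM on a log axis for 8 genes in each library of 5 groups, with group means as lines. All 4 UUO R4W libraries lie above all 4 UUO-7 libraries in each panel, and the immunoglobulin genes Igkc, Jchain and Igha have their lowest UUO R4W value in UUO R4W 4.

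T and NK cell genes were at low levels. Of 12 measured 7 were called higher and 1 lower, against 17.6% and 30.8% of all genes, with a median of 0.64. They summed to 29.5 to 47.8 FPKM in UUO-7 and to 50.8, 79.6, 81.2 and 38.1 FPKM in UUO R4W, so that UUO R4W 4 lay within the UUO-7 range. The 1 lower was Klrd1 (-0.42), a natural killer cell receptor gene, which was not called without UUO R4W 1 (adjusted p = 0.0713) or UUO R4W 4 (adjusted p = 0.0698). Cd8a, the co-receptor of cytotoxic T cells, was 1.01, 2.25, 1.88 and 2.40 FPKM in UUO-7 and 4.12, 4.51, 4.32 and 2.70 FPKM in UUO R4W, all above Sham (0.30 to 0.50 FPKM). The change was 0.78 ± 0.14 (SE, adjusted p = 0.000148). Cd3g, a part of the T cell receptor complex, rose by 0.89 ± 0.20 (SE, adjusted p = 0.00102). The list had 7 genes called higher without UUO R4W 1 and 3, against 12.9% of all genes.

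Of 22 macrophage genes measured, 4 were called lower and 3 higher (median -0.28), against 30.8% and 17.6% of all genes. The share higher was near that of all genes, and the number lower depended on the libraries used. In all 22 the UUO R4W libraries were above Sham, against 52.9% of all genes. The number lower was 2 without UUO R4W 1 or without UUO R4W 4, and 7 without UUO R4W 2 or without UUO R4W 3. Cd14, the co-receptor for bacterial lipopolysaccharide, was 68.9 to 84.2 FPKM in UUO-7 and 20.0 to 31.6 FPKM in UUO R4W (-1.46 ± 0.31, SE, adjusted p = 0.000635). Mmp12, which encodes macrophage elastase, was 4.35, 9.16, 8.2 and 7.6 FPKM in UUO-7 and 12.3, 25.3, 26.1 and 13.0 FPKM in UUO R4W (1.24 ± 0.32, SE, adjusted p = 0.0036). Gpnmb, a glycoprotein of macrophages that have taken up lipid or debris, was 0.86, 0.94, 0.99 and 0.99 FPKM in UUO-7 and 5.51, 8.83, 9.55 and 3.73 FPKM in UUO R4W. It was 0.02 to 0.16 FPKM in Sham, and the change was 1.95 ± 0.30 (SE, adjusted p = 4.43e-05). Its means were 1.44 FPKM in UUO R1W and 4.36 in UUO R2W. Lyz2, a lysozyme gene of macrophages, was 305, 417, 333 and 413 FPKM in UUO-7 and 486, 767, 743 and 392.0 FPKM in UUO R4W. These ranges overlapped through UUO R4W 4, and the change of 0.66 ± 0.31 (SE) was not called (adjusted p = 0.0884). It was called after rescaling (0.77, adjusted p = 0.0327) and without UUO R4W 4 (0.84, adjusted p = 0.0465).

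Chemokine genes, the signals that draw leukocytes, were called lower in 8 and higher in 5 of 21, against 30.8% and 17.6% of all genes. Cxcl1 and Cxcl2, which attract neutrophils, fell by 2.13 ± 0.44 (SE, adjusted p = 0.000599) and 1.69 ± 0.32 (SE, adjusted p = 0.000242). Cxcl1 was 47.2 to 51.8 FPKM in UUO-7 and 11.4, 18.1, 12.5 and 4.35 FPKM in UUO R4W. Cxcl12, which holds lymphocytes and progenitor cells in tissue, was 33.1, 38.3, 35.6 and 32.1 FPKM in UUO-7 and 77.4, 106, 83.0 and 110.2 FPKM in UUO R4W (1.40 ± 0.23, SE, adjusted p = 7.59e-05). It was 25.4 to 40.1 FPKM in Sham, which UUO-7 overlapped and UUO R4W did not. The monocyte chemokine gene Ccl8 rose by 1.32, but without UUO R4W 1 and 3 it was not called (1.10, adjusted p = 0.115), nor without UUO R4W 2 alone (adjusted p = 0.0632) or UUO R4W 3 alone (adjusted p = 0.0585), and of the list 1 gene was called higher and 9 lower without UUO R4W 1 and 3, against 12.9% and 25.2% of all genes. Without UUO R4W 2, 3 were higher. Of 15 antigen presentation genes 5 were called lower, near the share of all genes (30.8%), and 1 higher. After rescaling 2 were lower and 2 higher. The number higher was 3 without UUO R4W 4, and the number lower was 1 or 2 without UUO R4W 1, UUO R4W 4, UUO-7 2, UUO-7 3 or UUO-7 4. Cd74, the chaperone of class II molecules, changed by -0.57 (adjusted p = 0.0426) as deposited and by -0.46 (adjusted p = 0.0755) after rescaling, and by -0.37 (adjusted p = 0.186) without UUO R4W 4.

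Other genes named in the class that rose further were Cbr2, Clic3, Mfap5 and Podxl. Cbr2, a carbonyl reductase, was 6.33, 6.98, 8.88 and 8.62 FPKM in UUO-7 and 46.7, 15.5, 37.3 and 22.0 FPKM in UUO R4W (1.74 ± 0.33, SE, adjusted p = 0.000237). UUO R4W 1 and 3, the libraries with adipose RNA, were its highest, and without them the change was 1.18 (adjusted p = 0.0139). Mfap5, an elastic microfibril protein gene, rose by 0.86 (adjusted p = 0.0173) but was not called without UUO R4W 2 (0.63, adjusted p = 0.0762) or without UUO-7 1 (0.72, adjusted p = 0.062). Clic3, an intracellular chloride channel family gene, rose by 0.81 (adjusted p = 0.00285), and without UUO R4W 1 and 3 it was not called (0.58, adjusted p = 0.0663).

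Podxl encodes podocalyxin, the charged coat of the filtration-barrier cells called podocytes. It was 29.1, 32.0, 32.8 and 37.0 FPKM in UUO-7 and 55.3, 52.97, 75.1 and 54.5 FPKM in UUO R4W, against 20.1 to 23.6 FPKM in Sham (0.83 ± 0.21, SE, adjusted p = 0.00334). Of 10 podocyte genes 6 were called higher and 0 lower, against 17.6% of all genes called higher. In 9 the UUO R4W libraries were all above Sham, against 52.9% of all genes. Nphs1, which encodes the slit diaphragm protein nephrin, was 7.26, 8.15, 9.14 and 8.56 FPKM in UUO-7 and 13.4, 12.9, 19.6 and 13.0 FPKM in UUO R4W (0.74 ± 0.16, SE, adjusted p = 0.000655). Sham was 4.84 to 5.40 FPKM, below both groups. The number of the 10 called higher was 4 without UUO R4W 1 and 3, against 12.9% of all genes.

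The 6 genes lowered at day 7 that fell further changed little. The 4 with a mean of at least 10 FPKM were Slc6a8, a creatine transporter gene (-0.25), Qprt, an enzyme gene of NAD synthesis (-0.32), Tmem19 (-0.26) and Ipmk, an inositol phosphate kinase gene (-0.18), and none of the 4 was called after rescaling or without UUO R4W 1 and 3.

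Adipose genes separated the UUO R4W libraries from each other. The 16 measured adipose genes summed to 3257, 245, 789 and 308 FPKM in UUO R4W 1 to 4, to 236 to 300.3 FPKM in UUO-7 and to 474 to 805 FPKM in Sham. Adipoq, which only fat cells make in quantity, was 79.7, 0.17 and 25.6 FPKM in UUO R4W 1 to 3 and was listed at 0 in UUO R4W 4. It was listed at 0 in 3 UUO-7 libraries and at 0.79 FPKM in UUO-7 3. Of the 16 genes 9 were called higher with all libraries, against 17.6% of all genes. Without UUO R4W 1 and 3, 1 was higher and 1 lower, against 12.9% and 25.2% of all genes. With UUO R4W 1 left out there was 1, with UUO R4W 3, UUO-7 1 or UUO-7 4 left out 3, and with UUO-7 2 left out 4, while with UUO R4W 2 or UUO R4W 4 left out there were 13. Adipoq itself was called (2.61, a fitted value that depends on the pseudocount, adjusted p = 0.0363) and went to -0.10 (adjusted p = 0.923) without them.

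Urothelial genes, of the lining of the renal pelvis and ureter, followed a similar order. The 10 measured genes summed to 330.3, 95.1, 240.3 and 184 FPKM in UUO R4W 1 to 4, to 57.9 to 103 FPKM in UUO-7, and to 115 FPKM in Sham 2 against 2.20 to 6.92 FPKM in the other Sham libraries. In all, 4 uroplakin genes were called higher and 0 genes lower, against 17.6% and 30.8% of all genes, with a list median of 1.28. Without UUO R4W 1 and 3, 2 were called higher, against 12.9% of all genes, and the median was 0.81, and Upk1b (1.26, adjusted p = 0.114) and Upk3a (1.42, adjusted p = 0.133) were no longer called. Upk1a was 3.96, 2.59, 3.81 and 5.69 FPKM in UUO-7 and 34.9, 12.4, 22.1 and 21.2 FPKM in UUO R4W (2.19 ± 0.42, SE, adjusted p = 0.000295), and without UUO R4W 1 and 3 it was still called (1.82, adjusted p = 0.00991). The part of tissue sampling in these values was not tested.

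**Figure D4:**
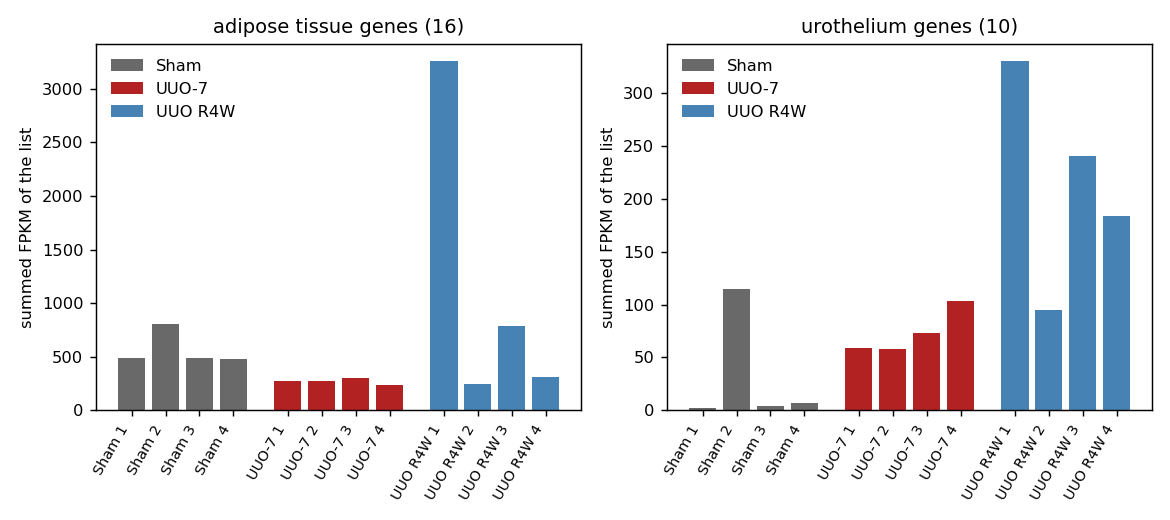
Summed FPKM of 16 adipose genes (left) and 10 urothelial genes (right) in each Sham, UUO-7 and UUO R4W library. UUO R4W 1 stands highest in both, with sums of 3257 and 330.3 FPKM, and Sham 2 is highest of the Sham libraries in both.

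Among called genes UUO R4W 4 was more often than any other UUO R4W library the farthest from UUO-7. The calls were made with this library in the fit, so these counts are not independent of it. Of the 4551 genes called lower it was the lowest of the 4 UUO R4W libraries in 2722 (59.8%), against 41.3% of all genes. Of the 2604 called higher it was the highest in 1210 (46.5%), against 21.0% of all genes. After rescaling the same gene sets gave 49.1% and 55.0%, against 33.4% and 28.4% of all genes. Its 10 most abundant genes took 19.4% of summed FPKM, against 14.8% to 15.8% in UUO R4W 1 to 3 and 9.34% to 11.7% in UUO-7. Its Havcr1, C3, Spp1 and Top2a values were each the lowest of the 4, and its Egf, Slc34a1, Lrp2 and Klk1 values the highest. Igkc, which was called higher, went the other way: the value in UUO R4W 4 was the lowest and so the nearest to UUO-7. The summed T and NK cell genes did the same. Leaving it out gave 6101 called genes, 2267 higher and 3834 lower.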

How the data were processed

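PolyA RNA libraries of mouse kidney, 4 animals in each of 6 groups, were analysed from the deposited table, with groups and replicate numbers taken from the sample titles. The submitters' processing notes name FastQC, Bowtie2, RSEM, DESeq2 and mm10, with no role or order. The deposited FPKM values carry no stated unit. FPKM was inferred from the values, and low values stepped as whole fragments would in all groups but UUO-2. The score for the fit of the steps was 0.166 to 0.226 in UUO-2, against 0.48 to 0.752 in the other libraries. The UUO-2 libraries are in the model that gives each SE. No gene in the table had a mean under 1, and weakly expressed genes were not analysed here. Per the file headers, the deposited table lists log2 fold changes and adjusted p-values of comparisons made by the authors, used only for a count. Strand and the handling of reads shared by near copies are not given in the sources used here.

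The test was that of limma 3.58.1 (R 4.3.3, with trend) on log2(FPKM + 1), a scale that understates the change of low genes. All 24 libraries were in 1 model with 18 residual degrees of freedom, and Benjamini-Hochberg adjustment ran over 14785 genes. The unit gives no counts, so counting intervals are not given. Implied depth was found from the steps with a fragment term of 120 to 180 bases subtracted from transcript length. Rescaled values divide each library by its median ratio. The fit was tested on simulated data. P-values measure the spread between animals as labelled.

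The members and the 28 gene lists (470 genes, 418 with a row) were chosen with earlier results of these data known. Genes named were the 12 largest rises and 12 largest falls among called genes (mean over the 8 libraries of 10 FPKM or more, groups not overlapping), up to 8 that rose further and 5 that fell further, up to 4 of each list, and 18 named beforehand; Fgb and list genes given as exceptions were chosen after their values were seen. A few genes that this rule picked are not reported here. Alternatives were another scale, other pseudocounts (0.1 and 10), a filter, fewer libraries, a replicate block, stricter thresholds and each replicate left out. The classes against Sham were also made without Sham 2, an alternative chosen after seeing the data.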

Additional observations from a re-analysis of the deposited data

Results flagged for a closer look

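The genes picked by the naming rule, the list sums and 4 library totals or shares were checked in UUO-7 and UUO R4W for a library far from the others of its group. Of 302 checks 26 stood apart, where chance gives about 15.1, and all 8 libraries were among them. In UUO-7 several were genes at or near 0 in most libraries. Adipoq was 0.79 FPKM and Pvalb 0.04 FPKM in UUO-7 3 and UUO-7 1, both listed at 0 in the others. Ighg2c, an immunoglobulin heavy chain gene, was 2.22 FPKM in UUO-7 2 against 0.03 to 0.10 FPKM, and Retn, an adipose gene, was 0.88 FPKM in UUO-7 3 against 0 to 0.09 FPKM.

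Other genes that stood apart in UUO-7 were at higher levels. In UUO-7 4, Aqp4 was 3.48 FPKM against 1.91 to 2.08 FPKM, Gdf15 was 34.6 FPKM against 57.3 to 61.95 FPKM and Uqcrfs1 was 126.5 FPKM against 148 to 152 FPKM. In UUO-7 1, Gbp2 was 30.1 FPKM against 25.5 to 25.9 FPKM and Sqle was 33.5 FPKM against 25.2 to 26.6 FPKM. Clec9a was 3.23 FPKM in UUO-7 2 against 2.47 to 2.52 FPKM, and Slc6a8 was 59.7 FPKM in UUO-7 3 against 64.0 to 64.8 FPKM. The summed podocyte genes were 172 FPKM in UUO-7 1 against 199.6 to 202 FPKM in the others, and the summed skeletal muscle genes were 1.85 FPKM in UUO-7 4 against 1.06 to 1.12 FPKM.

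In UUO R4W 1, Ighg1 was 149.8 FPKM against 0.50 to 2.21 FPKM in the others, Thrsp, an adipose gene, was 201 FPKM against 2.24 to 19.9 FPKM, and Fga was 14.4 FPKM against 11.46 to 11.8 FPKM. In UUO R4W 3, 3 podocyte genes were high: Podxl at 75.1 FPKM against 52.97 to 55.3 FPKM, Nphs1 at 19.6 FPKM against 12.9 to 13.4 FPKM, and Ptpro at 12.8 FPKM against 8.39 to 8.57 FPKM. The summed fatty acid oxidation genes were 2056 FPKM in UUO R4W 3 against 2547 to 2599 FPKM, and Qprt was 31.4 FPKM in UUO R4W 2 against 37.8 to 38.9 FPKM. In UUO R4W 4, Cdkn1a was 12.4 FPKM against 20.8 to 21.8 FPKM, Rhbg was 30.5 FPKM against 26.9 to 27.3 FPKM, and Slc7a13 was 228 FPKM against 163 to 170.6 FPKM. UUO R4W 4 also had the highest summed FPKM (739100 against 724800 to 726900) and the lowest median gene (10.7 FPKM against 11.49 to 11.6).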

How the results depend on the processing

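The 7155 calls (2604 higher, 4551 lower) numbered 6015 to 6749 with a replicate left out (2035 to 2599 higher, 3834 to 4408 lower) and 5630 without UUO R4W 1 and 3. They numbered 4691 (1469 higher) with a mean of at least 10 FPKM, which tests fewer genes, and 1677 genes were higher at an adjusted p under 0.01. Beyond a log2 difference of 1 in size there were 892 (460 higher, 432 lower), and 857 after rescaling (535 higher, 322 lower). Deviations from the group means correlated weakly between same-numbered UUO-7 and UUO R4W libraries (0.04 to 0.12), and 3 of 4 UUO R4W libraries correlated best with their own number. Whether the replicate numbers mark a shared batch or pairing was not tested. The replicate block gave 6916 calls. Among the 122 named genes the sign reversed for Adipoq (-0.10) and Retn (-0.17) without UUO R4W 1 and 3, and for Csf3r (0.022), not called in either fit, without UUO R4W 4 (its range over left-out replicates was -0.29 to 0.022). With UUO R4W 2 placed in UUO R2W, 6 of the 122 were no longer called. The class that rose further held 157 genes after rescaling and that which fell further 50, against 6, and 13 without Sham 2. The authors' deposited table called 7796 genes, 3801 of them higher in UUO R4W. The causes were not tested.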

Other observations

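Genes of cholesterol synthesis, a sterol that cells make from acetyl-CoA, were called higher in 8 and lower in 1 of 21, with a median log2 fold change of 0.23 against -0.08 over all genes. Of all genes 17.6% were called higher and 30.8% lower, and 12 of the 21 were not called. Idi1, an isomerase of the pathway, was 15.9, 14.9, 15.1 and 12.6 FPKM in UUO-7 and 33.6, 30.5, 30.9 and 34.6 FPKM in UUO R4W, below Sham (50.4 to 78.3 FPKM), a change of 1.10 ± 0.17 (SE, adjusted p = 5.05e-05). Insig1, which restrains the pathway, was 30.9 FPKM in UUO R4W 1 against 10.3 to 14.4 FPKM in UUO R4W 2 to 4. UUO R4W 1 is also the library with the most adipose RNA, and the change was 1.07 with it and 0.67 (adjusted p = 0.00439) without UUO R4W 1 and 3.

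Interferon response genes were called lower in 7 (30.8% of all genes) and higher in 0 of 19 (17.6% of all genes). In all 19 the UUO R4W libraries were above Sham, against 52.9% of all genes. Without UUO R4W 4 the number lower was 4. Bst2, a membrane protein that tethers viruses, was 135 to 167 FPKM in UUO-7, 60.2 to 96.4 FPKM in UUO R4W and 14.4 to 24.7 FPKM in Sham (-0.86 ± 0.20, SE, adjusted p = 0.00127). Endothelial genes were called higher in 4 and lower in 2 of 14, against 17.6% and 30.8% of all genes. With UUO R4W 3, UUO R4W 4, UUO-7 1 or UUO-7 3 left out 2 were higher, and with UUO R4W 1, UUO R4W 2, UUO-7 1 or UUO-7 3 left out 1 was lower. Eng, a co-receptor for TGF-beta, fell by 0.61 ± 0.17 (SE, adjusted p = 0.00525), from 64.4 to 68.6 FPKM down to 40.1 to 45.5 FPKM. Ptprb, a phosphatase of vessel walls, rose by 0.60 ± 0.17 (SE, adjusted p = 0.0074), from 3.64 to 5.15 FPKM up to 6.31 to 7.78 FPKM. Of the neutrophil list 3 of 10 genes were measured and none was called. Of 9 adrenal cortex genes 2 were measured, and Akr1b7, an aldo-keto reductase gene, changed by -0.47 (adjusted p = 0.00817).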
